A study of Mus musculus with 6 samples.

Results

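Semaphorins are secreted or membrane-bound guidance proteins, plexins are their principal signalling receptors, and neuropilins are the co-receptors that most secreted class 3 semaphorins need in order to reach a plexin. All genes of these 3 families, in the mouse hippocampus, are described here. Members were taken by name: every probe set with a single annotated symbol of the form Sema3 to Sema7 with a letter, Plxna to Plxnd, Nrp1 or Nrp2. This gave 33 probe sets for 31 genes, among 22180 genes with a probe set of their own. Plxna1 and Plxnb1 have 2 probe sets each, and for these the one with the higher mean over all arrays stands for the gene. The 31 are 20 semaphorins, 9 plexins and 2 neuropilins.

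The mice were male quadruple knockout mice (Tnc -/-, Tnr -/-, Bcan -/-, Ncan -/-), which lack the matrix glycoproteins tenascin-C and tenascin-R and the chondroitin sulfate proteoglycans brevican and neurocan. They were compared with male wildtype siblings, at postnatal day 21 in both groups. Total RNA of the hippocampus was hybridised to 3 arrays per genotype, numbered here as the labels number the biological replicates. The knockout is present in every cell of the animal from conception, and it is not stated whether each array holds 1 animal. The deposited values are log2 signals after Robust Multichip Average (RMA), a procedure that corrects the background, brings the arrays to a common distribution and condenses the probes of a transcript to 1 number. The genotypes were compared with limma, which fits a linear model to each probe set and steadies its variance with that of the others. The Benjamini-Hochberg adjustment was made over the whole table of 34472 probe sets. Every difference is quadruple knockout minus wildtype on the log2 scale, ± is the SD over 3 arrays, and SE is the standard error of the limma fit. For a single gene the lowest two-sided p that an exact permutation of these 6 arrays allows is 0.1. Signals of different probe sets depend on their probes and are not set against each other.

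The signals of Bcan and Ncan followed the labels. Array medians ran from 6.30 to 6.33 in the knockout and from 6.34 to 6.39 in the wildtype. Bcan had a signal of 5.78 ± 0.06 in the knockout against 10.49 ± 0.17 in the wildtype, and the brighter Ncan probe set one of 6.65 ± 0.26 against 11.78 ± 0.05 (n = 3 each, limma adjusted p of 2.38e-06 and 5.85e-06). Tnc and Tnr were read at 7.96 ± 0.18 and 11.62 ± 0.05 in the knockout, against 8.11 ± 0.28 and 11.71 ± 0.08 in the wildtype. Their probe sets check the labels only if they lie in deleted sequence, which the sources used here do not give. A signal of 6.03 served as background, since 95% of the 1108 probe sets for olfactory receptors had a mean at or below it. Of 5 hippocampal identity genes, 5 lay above it, Prox1 of dentate granule cells and Wfs1 of CA1 pyramidal cells among them. Of the members 30 had a mean above it, and Sema3a lay below it in all 6 arrays.

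Semaphorin signalling is known for turning growth cones away and for pruning axons and spines. A semaphorin dimer brings plexins together, and the plexin then acts inside the cell as a switch on small GTPases of the Rap and R-Ras type, with further routes to MICAL oxidoreductases and to collapsin response mediator proteins. In the hippocampus, Sema3F with neuropilin-2 and plexin-A3 is known for the pruning of mossy fibre branches and of spines, and Sema6A and Sema6B with plexin-A2 and plexin-A4 for the layering of mossy fibres. Sema3A is known to gather in perineuronal nets, the condensed matrix around certain neurons, where it binds chondroitin sulfate chains, and the lost proteins of the quadruple knockout are parts of these nets.

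None of the 31 members passed the limma adjusted p of 0.05, which 0.139% of all probe sets did (0.113% higher and 0.0261% lower). Before adjustment, 4 members had a limma p under 0.05, namely Sema4b, Sema4c, Sema5b and Plxnc1, all of them higher in the knockout, and 0 had one under 0.01. At the limit of 0.05, 3.91% of all probe sets were higher and 5.14% lower, at that of 0.01 0.922% and 1.13%, and at 0.05 5.3% and 2.81% of the 14601 genes above background. The promoters of these 4 genes are shown because the account of single genes turns on them. Each window is taken from RefSeq, assembly GRCm38.p6, runs from 250 bases before to 50 after the annotated start, and belongs to the most upstream start in the table. Capitals mark the GC box, GGGCGG on either strand, a site of the Sp1 family of activators.
Sema4b: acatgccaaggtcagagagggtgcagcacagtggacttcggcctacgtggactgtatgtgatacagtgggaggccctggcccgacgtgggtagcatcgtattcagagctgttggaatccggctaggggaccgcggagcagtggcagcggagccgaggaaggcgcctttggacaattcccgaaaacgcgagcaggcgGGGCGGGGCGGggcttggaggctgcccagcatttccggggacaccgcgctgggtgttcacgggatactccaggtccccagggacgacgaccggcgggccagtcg
Sema4c: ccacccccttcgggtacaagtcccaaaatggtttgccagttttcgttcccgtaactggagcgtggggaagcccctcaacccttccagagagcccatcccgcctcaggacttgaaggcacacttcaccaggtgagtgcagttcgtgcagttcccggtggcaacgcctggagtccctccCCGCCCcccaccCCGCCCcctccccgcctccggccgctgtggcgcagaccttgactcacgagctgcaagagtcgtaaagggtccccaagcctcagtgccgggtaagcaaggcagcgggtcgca
Sema5b: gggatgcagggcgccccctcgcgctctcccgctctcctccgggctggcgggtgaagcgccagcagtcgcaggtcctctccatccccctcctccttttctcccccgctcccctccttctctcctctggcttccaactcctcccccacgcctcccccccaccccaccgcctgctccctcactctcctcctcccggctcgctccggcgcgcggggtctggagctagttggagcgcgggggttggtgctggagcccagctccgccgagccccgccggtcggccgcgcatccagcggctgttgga
Plxnc1: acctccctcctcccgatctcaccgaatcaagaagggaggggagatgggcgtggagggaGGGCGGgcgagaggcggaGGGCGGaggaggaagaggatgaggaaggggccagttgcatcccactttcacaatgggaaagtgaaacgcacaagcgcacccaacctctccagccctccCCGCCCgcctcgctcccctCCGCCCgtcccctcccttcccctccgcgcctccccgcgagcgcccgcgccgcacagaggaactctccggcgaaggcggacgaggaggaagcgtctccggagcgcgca

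The Sema4b window lies at chr7:80186620-80186919 on the plus strand, that of Sema4c at chr1:36558332-36558631 on the minus strand, that of Sema5b at chr16:35541112-35541411 on the plus strand and that of Plxnc1 at chr10:94944796-94945095 on the minus strand. The 4 genes thus lie on 4 chromosomes. The Sema4b window holds 2 GC boxes that share a base, the Sema4c window 2, the Plxnc1 window 4 and the Sema5b window 0. A GC box was found in 20 of the 26 members with a promoter in the table (76.9%), against 46.3% of 17462 protein-coding genes. The TATA box, TATAAA on either strand, was found in 0 of the 26, against 13.3% of the protein-coding genes. The median GC content of the member windows was 65%, with Sema3a lowest at 41.3% and Sema3c highest at 75.7%, against a median of 56.3% over the protein-coding genes. The core of the cAMP response element, TGACG on either strand, was found in 3 of the 26, in Sema3d, Sema5a and Sema7a, and in 23.8% of the protein-coding genes. A match of letters does not show that a factor binds there.

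Sema4c is a transmembrane class 4 semaphorin that signals through plexin-B2 and binds the postsynaptic scaffold protein PSD95. It had signals of 8.41, 8.34 and 8.30 in knockout replicates 1 to 3, against 8.13, 8.18 and 8.13 in wildtype replicates 1 to 3. The lowest knockout value exceeded the highest wildtype value. The log2 difference was 0.20 (SE 0.07, 95% interval 0.04 to 0.36), or 1.15-fold, with a limma p of 0.0199 before and 0.505 after adjustment. The study names this gene as altered on these same arrays, so its place among the 4 is not independent evidence.

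Sema4b, a transmembrane semaphorin of the same class that also ends in a sequence binding PSD95, had signals of 8.88, 8.74 and 8.77 in the knockout, against 8.46, 8.54 and 8.73 in the wildtype. The groups did not overlap, but wildtype replicate 3 came close to the lowest knockout array. The log2 difference was 0.22 (SE 0.09, 95% interval 0.01 to 0.44), with a limma p of 0.0448 before and 0.542 after adjustment.

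Sema5b is a membrane semaphorin with thrombospondin repeats, known in the mouse retina as a repellent that works through plexin-A1 and plexin-A3. It had signals of 9.69, 9.81 and 9.85 in the knockout, against 9.50, 9.70 and 9.50 in the wildtype. Wildtype replicate 2 lay just above knockout replicate 1, so the groups overlapped by these 2 arrays. The log2 difference was 0.22 (SE 0.09, limma p of 0.0383 before and 0.535 after adjustment).

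Plxnc1, the receptor of Sema7A, had signals of 9.76, 9.64 and 9.76 in the knockout, against 9.59, 9.53 and 9.50 in the wildtype. All knockout arrays lay above all wildtype arrays, with knockout replicate 2 nearest to the wildtype. The log2 difference was 0.18 (SE 0.07, limma p of 0.0361 before and 0.534 after adjustment).

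In all, 3 members had no overlap with the knockout on top, Sema4b, Sema4c and Plxnc1, where 7.94% of all probe sets and 12.9% of genes above background did so. The opposite order was seen in 1 member, Sema3g, and in 7.39% of all probe sets (4.99% of genes above background). The share of separated members thus lies near that of all genes. Marker lists of cell types were read beside these genes. For GABAergic interneurons the mean signal was 9.26, 9.17 and 9.31 in the knockout against 9.02, 9.03 and 9.001 in the wildtype. All 8 markers had a positive difference, as did 60.3% of genes above background. Of the 8, 3 (Gad2, Reln and Sst) were higher with a limma p under 0.05 before adjustment, as were 5.3% of genes above background. The groups overlapped in Sst, and the study names Gad2 as altered on these same arrays. None of the 8 passed the adjusted p (smallest 0.399), and 0 lay below background. For thalamus the mean signal of 5 markers was 8.81, 8.82 and 8.93 in the knockout against 8.78, 8.78 and 8.58 in the wildtype, also without overlap, with 5 of 5 above 0. The gap was small (8.81 against 8.78). Only 1 of the 5 genes had no overlap by itself, and 0 had a limma p under 0.05 before adjustment. All 5 markers of dentate granule cells and all 5 of the choroid plexus had a difference below 0, none with a limma p under 0.05 before adjustment. Other lists held genes with such a p. Cspg4 of oligodendrocyte precursors (0.19) and Dcn of meninges and fibroblasts (1.31) were higher. Col1a1 of meninges and fibroblasts (-0.28) and Tagln of pericytes and smooth muscle (-0.31) were lower, as were 2.81% of genes above background. None of these passed the adjusted p, and in each the groups did not overlap. The part of these markers in the values of the members was not tested. In tissue RNA, more cells of a type and more RNA per cell cannot be told apart.

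**Figure D1:**
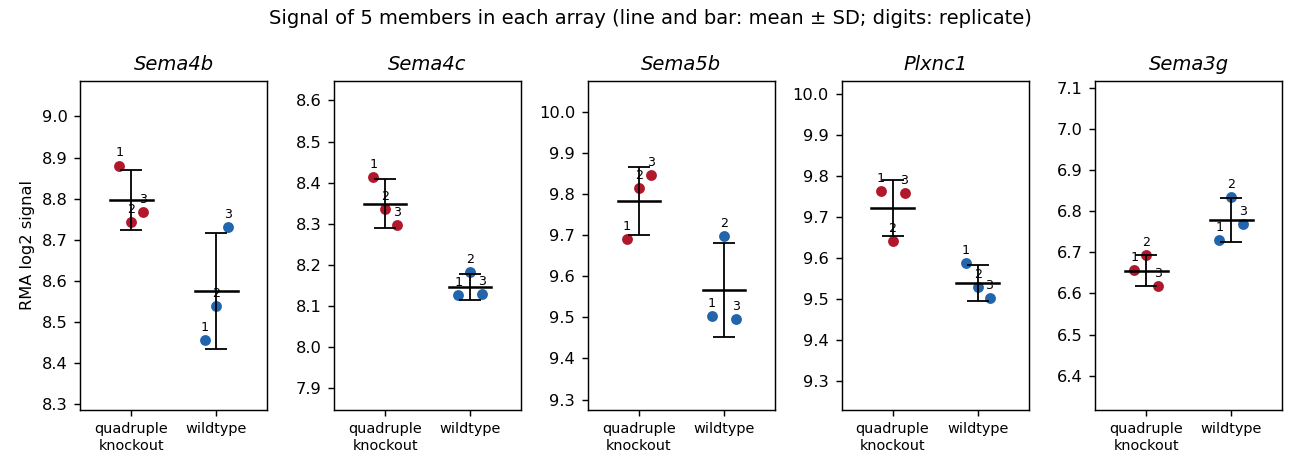
RMA log2 signal (vertical axis) of 5 members in the 3 quadruple knockout arrays (red) and the 3 wildtype arrays (blue), with the replicate number beside each point and the mean ± SD in black; each panel spans 0.8 on the log2 scale. Sema4b, Sema4c and Plxnc1 lay higher in all knockout arrays, Sema5b overlapped by 2 arrays, and Sema3g lay lower in all knockout arrays.

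The count of 4 rests on single arrays. It was 1 without knockout replicate 1 (Sema5b), without knockout replicate 3 (Sema4c), without wildtype replicate 1 (Plxnc1) or without wildtype replicate 3 (Sema4b), 3 without wildtype replicate 2 and 5 without knockout replicate 2, and it was 0 after another quantile normalization.

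More members lay above 0 than below, by a margin that varied with single arrays and with the normalization. The median of the 31 log2 differences was 0.08, with quartiles at 0.01 and 0.17, and 25 were above 0. Among the 30 members above background 24 were above 0. Over all genes above background the median was 0.03, and 60.3% were above 0, as were 48.5% of all probe sets. Of the 31 members 20 were above 0 after another quantile normalization, 28 after median centring and 20 without knockout replicate 1. The share of all genes above 0 under these settings is not given, so these counts have no baseline of their own. The median was 0.05 without wildtype replicate 1, and 0.06 when the probe sets of each gene were averaged. The median deviation of the members from their mean over all arrays was 0.10, -0.00260 and 0.05 in knockout replicates 1 to 3, against -0.08, -0.00573 and -0.00640 in wildtype replicates 1 to 3, so knockout replicate 2 lay near wildtype replicates 2 and 3. None differed by over 1.5-fold, the limit that the study's methods set. The study also names genes below that limit as altered, Sema4c among them. For 29 members the 95% interval of the difference lay within 1.5-fold in both directions, and for Sema3e and Plxna1 it reached further upwards. The 29 include Sema3a, whose interval says nothing of its expression because its signals lay below background.

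**Figure D2:**
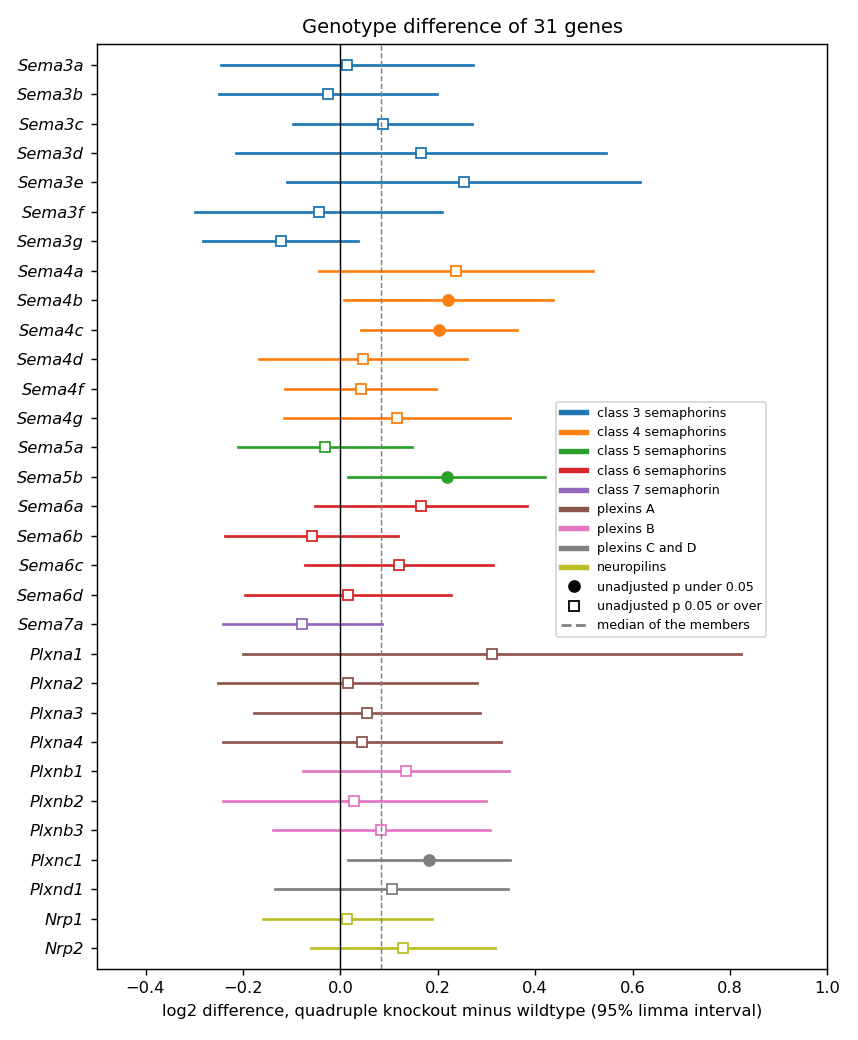
Log2 difference, quadruple knockout minus wildtype (horizontal axis), of each of the 31 genes with its 95% limma interval, coloured by class; filled circles have an unadjusted limma p under 0.05. The 9 plexins and both neuropilins lay above 0, 14 of 20 semaphorins did, and the dashed line marks the median of 0.08; after another quantile normalization Plxna2, Plxnb2 and Nrp1 lay below 0.

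The class 3 semaphorins, which are secreted, did not share a direction. Of 7 genes 4 were above 0 and 3 below, with a median difference of 0.01, and 0 had an unadjusted limma p under 0.05. Sema3a had signals of 5.80, 5.99 and 5.57 in the knockout and 5.77 in each wildtype array. All of these lie below background, so the array gives no level for the net-binding semaphorin. Sema3c, which guides callosal and cortical axons, had signals of 10.40, 10.32 and 10.39 in the knockout against 10.21, 10.40 and 10.24 in the wildtype. Wildtype replicate 2 was as bright as the knockout arrays (difference 0.09, SE 0.08, limma adjusted p = 0.755). Sema3b and Sema3f, which lie on the same chromosome, averaged 6.65 ± 0.13 and 7.49 ± 0.07 in the knockout, against 6.68 ± 0.11 and 7.53 ± 0.20 in the wildtype. For Sema3f, the pruning signal of mossy fibres, the 95% interval of the difference ran from -0.30 to 0.21.

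Sema3g, known from arterial endothelium, was the member with the lowest difference. Its signals were 6.66, 6.69 and 6.62 in the knockout against 6.73, 6.84 and 6.77 in the wildtype, with no overlap. The difference was -0.12 (SE 0.07, limma adjusted p = 0.628), and its limma p of 0.113 before adjustment missed the threshold. By the ordinary test, which takes the spread of this probe set alone, the p was 0.0319 before and 0.583 after adjustment. The 6 markers of endothelial cells averaged 7.34, 7.34 and 7.77 in the knockout and 7.30, 7.38 and 7.64 in the wildtype, so the groups overlapped, and 3 of the 6 were above 0. The list includes Ly6c1, which was above background in 1 array, knockout replicate 3.

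The neuropilins are the binding subunits of class 3 semaphorins, and neuropilin-1 also binds VEGF. Nrp1 had signals of 10.82, 10.65 and 10.71 in the knockout against 10.69, 10.68 and 10.77 in the wildtype, fully mixed between the genotypes (difference 0.01, 95% interval -0.16 to 0.19). Nrp2, the receptor of Sema3F, had signals of 10.68, 10.52 and 10.51 in the knockout against 10.44, 10.37 and 10.51 in the wildtype. Wildtype replicate 3 lay within the knockout range (difference 0.13, SE 0.08, limma adjusted p = 0.661).

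In class 4 all members were above 0, although Sema4d and Sema4f lay below 0 after another quantile normalization. Its 6 differences ran from 0.04 to 0.24, with a median of 0.16. Sema4a, a ligand of plexin-B and plexin-D receptors, had the highest of them, 0.24 (SE 0.12, limma adjusted p = 0.595), but its signals of 8.53, 8.33 and 8.75 in the knockout overlapped those of 8.31, 8.41 and 8.18 in the wildtype. After median centring its p before adjustment was under 0.05. Sema4d, made by oligodendrocytes and a ligand of plexin-B1, had signals of 9.36, 9.18 and 9.33 in the knockout against 9.24, 9.37 and 9.12 in the wildtype, with no order between the groups (difference 0.05, SE 0.09). Sema4f averaged 8.87 ± 0.02 in the knockout and 8.82 ± 0.05 in the wildtype, and Sema4g 8.99 ± 0.11 and 8.87 ± 0.14.

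The B plexins are receptors of class 4 semaphorins. Plxnb1 had signals of 9.25, 8.97 and 9.11 in the knockout against 8.91, 8.99 and 9.03 in the wildtype by its brighter probe set (difference 0.13, SE 0.09, limma adjusted p = 0.679). Its other probe set differed in the opposite direction, with 6.49 ± 0.14 in the knockout against 6.59 ± 0.08 in the wildtype (difference -0.11, SE 0.09), so this gene has no settled sign. Plxnb2, the receptor of Sema4C, had signals of 10.01, 9.97 and 9.64 in the knockout against 9.76, 9.82 and 9.96 in the wildtype. Knockout replicate 3 was the lowest of the 6 arrays (difference 0.03, SE 0.12). Plxnb3 averaged 7.86 ± 0.15 in the knockout and 7.77 ± 0.08 in the wildtype.

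Within class 5 the other member, Sema5a, was read at 11.66, 11.64 and 11.53 in the knockout against 11.56, 11.65 and 11.71 in the wildtype. Sema5A is known in the dentate gyrus as a brake on synapse formation of granule cells through plexin-A2. The arrays were mixed (difference -0.03, 95% interval -0.21 to 0.15), whereas Sema5b had a difference of 0.22, and whether the 2 genes differ was not tested.

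Class 6 semaphorins are transmembrane ligands and receptors of the A plexins. Sema6d had signals of 11.22, 11.17 and 11.09 in the knockout against 11.05, 11.08 and 11.30 in the wildtype, with the highest value in a wildtype array (difference 0.02, SE 0.09). Sema6a averaged 9.68 ± 0.11 in the knockout and 9.51 ± 0.12 in the wildtype, Sema6b 10.44 ± 0.10 and 10.50 ± 0.03, and Sema6c 8.21 ± 0.11 and 8.09 ± 0.07. Of the pair known for the layering of mossy fibres, Sema6a thus had a difference of 0.17 (limma adjusted p = 0.631) and Sema6b one of -0.06 (limma adjusted p = 0.835).

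The A plexins are the receptors of class 5 and 6 semaphorins and, with a neuropilin, of class 3. Plxna4 had signals of 12.29, 12.07 and 11.86 in the knockout against 11.90, 12.05 and 12.14 in the wildtype. The knockout arrays spanned the whole wildtype range (difference 0.04, SE 0.12). Plxna2 averaged 10.71 ± 0.20 in the knockout and 10.69 ± 0.09 in the wildtype, and Plxna3, the receptor of Sema3F, 8.80 ± 0.14 and 8.74 ± 0.11. Plxna1 had the largest difference and also the largest error of the 31 members, 0.31 (SE 0.22, limma adjusted p = 0.690). Its signals were 11.02, 10.54 and 11.29 in the knockout against 10.56, 10.98 and 10.38 in the wildtype, and its other probe set gave a difference of 0.00 (SE 0.12).

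Sema7a, a lipid-anchored semaphorin that binds plexin-C1 and integrin beta-1, had signals of 10.70, 10.77 and 10.73 in the knockout against 10.73, 10.86 and 10.84 in the wildtype. Its difference of -0.08 (SE 0.07, limma adjusted p = 0.754) lay on the other side of 0 from its receptor gene Plxnc1 at 0.18. Sema3e and its receptor gene Plxnd1, which together guide vessels and some axons without a neuropilin, were both above 0. Sema3e was read at 9.48, 9.12 and 9.71 in the knockout and 9.11, 9.35 and 9.09 in the wildtype (difference 0.25, SE 0.15), and Plxnd1 at 7.37, 7.31 and 7.38 in the knockout against 7.12, 7.46 and 7.16 in the wildtype (difference 0.11, SE 0.10). In both genes wildtype replicate 2 lay above knockout replicate 2.

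This order of arrays recurred among the members, and it was noticed after the values were seen. In 9 of 31 members knockout replicate 3 was the highest knockout array and wildtype replicate 2 the highest wildtype array, as against 14.6% of all genes. They were Sema3d, Sema3e, Sema4a, Sema5b, Sema6b, Sema6c, Plxna1, Plxnb3 and Plxnd1. Sema3d, for example, was read at 7.38, 6.96 and 7.49 in the knockout and 7.05, 7.35 and 6.93 in the wildtype. Of 14 marker lists 7 had the same order in their mean signal, namely interneurons, CA1 and CA3 pyramidal cells, oligodendrocytes, pericytes and smooth muscle, meninges and fibroblasts, and thalamus. For interneurons, thalamus, and meninges and fibroblasts wildtype replicate 2 exceeded wildtype replicate 1 only narrowly. The means were 9.03 against 9.02, 8.784 against 8.781 and 7.328 against 7.323. The 5 markers of CA1 pyramidal cells had mean signals of 8.44, 8.28 and 9.04 in the knockout and 8.25, 8.82 and 8.22 in the wildtype. The 7 oligodendrocyte markers had 9.65, 9.47 and 9.998 in the knockout and 9.55, 9.99 and 9.54 in the wildtype. The markers of dentate granule cells were lowest in knockout replicate 3, at 9.80, and highest in wildtype replicate 3, at 10.31. In these 2 arrays 9 members, Sema3a (below background), Sema4g, Sema5a, Sema6d, Plxna2, Plxna3, Plxna4, Plxnb2 and Nrp2, also had their lowest knockout and highest wildtype signal, as did 14.1% of all genes. This order, too, was chosen after the values were seen. No gene of the CA1, oligodendrocyte and dentate lists lay below background in any array, and the part of the lists in the values of the members was not tested. Without knockout replicate 2, Sema3e, Sema4a, Sema4c, Plxna1 and Plxnc1 had an unadjusted limma p under 0.05. Sema4b and Sema5b then did not (unadjusted limma p of 0.0570 and 0.0924).

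**Figure D3:**
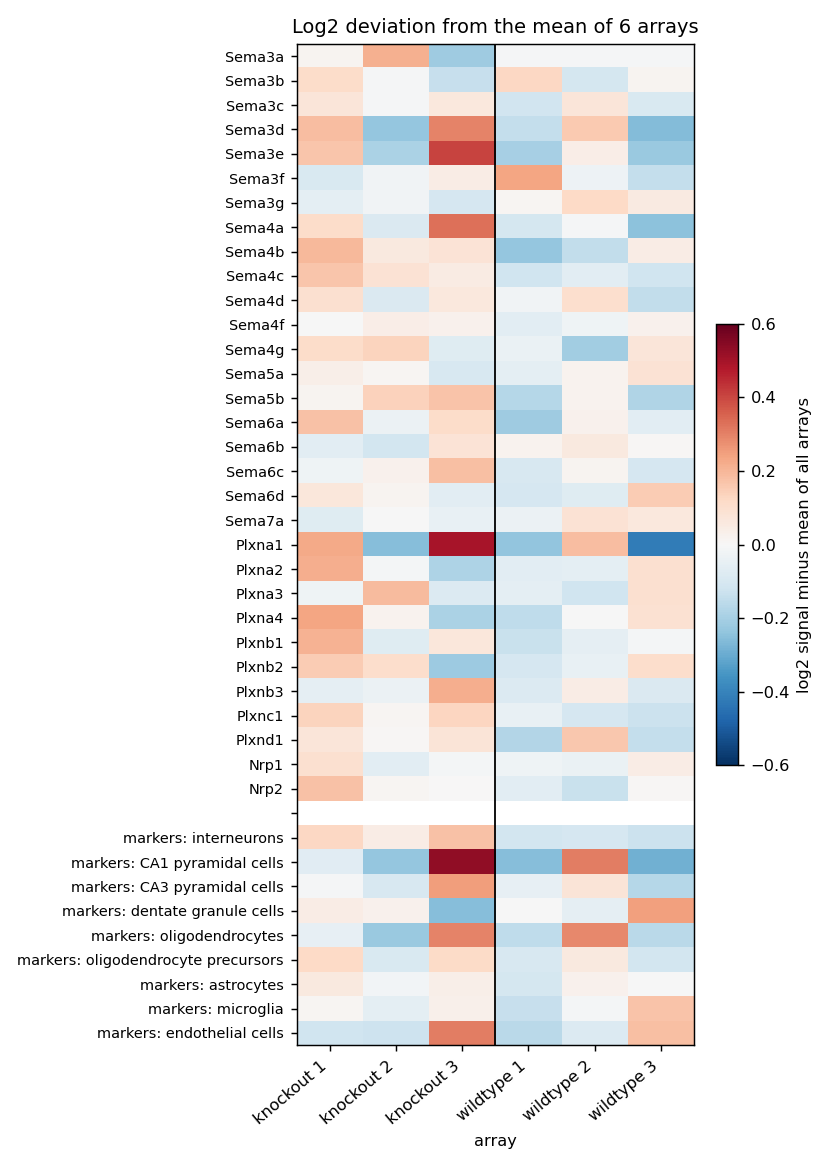
Log2 signal minus the mean of all 6 arrays (colour) for the 31 genes and, below the gap, for the mean of 9 lists of cell type markers, with the knockout arrays on the left and the wildtype arrays on the right. Sema3d, Sema3e, Sema4a and Plxna1 were high in knockout replicate 3 and above the other wildtype arrays in wildtype replicate 2, as were the CA1 and oligodendrocyte markers.

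The partners of the family were then read from lists of its known co-receptors and effectors. Of 93 measured genes in 7 lists, 0 passed the adjusted p. Before adjustment 11 had a limma p under 0.05, of which 9 were higher and 2 lower, and the median difference was 0.03. Among all genes above background 5.3% were higher and 2.81% lower by this rule, and among all probe sets 3.91% and 5.14%. Among the 10 co-receptors 9 were above 0, the median was 0.15, and 3 were higher at an unadjusted p under 0.05. Kdr, the VEGF receptor that pairs with neuropilin-1, had signals of 7.77, 7.48 and 7.88 in the knockout against 7.19, 7.43 and 7.27 in the wildtype (difference 0.42, SE 0.12, limma adjusted p = 0.484). L1cam, the partner of neuropilin-1 in the response to Sema3A, had 10.31, 10.20 and 10.43 in the knockout against 10.08, 10.17 and 9.999 in the wildtype (difference 0.23, SE 0.09, limma adjusted p = 0.527). Itgb1, the integrin chain that binds Sema7A, had 8.83, 8.76 and 8.91 in the knockout against 8.53, 8.65 and 8.66 in the wildtype (difference 0.22, SE 0.08, limma adjusted p = 0.509). In these 3 genes no knockout array reached down to the wildtype range, which was so in 12.9% of genes above background. For Kdr and L1cam the gap was small. The count of 3 was 1 without knockout replicate 1, knockout replicate 3 or wildtype replicate 1.

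The 5 collapsin response mediators had a median difference of 0.00 and ran from -0.04 to 0.04. Dpysl2, the member first found in the response to Sema3A, had a difference of 0.04 (limma adjusted p = 0.883) and Dpysl4 one of -0.04 (limma adjusted p = 0.908). MICAL enzymes take actin filaments apart. The 5 genes of these enzymes and of MICAL-like relatives had a median of 0.03, with Mical3 at 0.13 (limma adjusted p = 0.669) and Mical1 at -0.13 (limma adjusted p = 0.725). Of 25 plexin effectors 17 were above 0 with a median of 0.06, and 1 was higher at an unadjusted p under 0.05. In 4 of the 25 the knockout arrays all lay above the wildtype arrays, which was so in 12.9% of genes above background. The count of 1 was 4 after median centring, 2 without wildtype replicate 1, and 0 without knockout replicate 1, knockout replicate 2 or wildtype replicate 3. Among 10 genes listed as partners of the perineuronal net, not all of them parts of it, 2 had an unadjusted p under 0.05. Of these 1 was higher and 1 lower. Crtac1, a secreted antagonist of Nogo receptors, had a difference of 0.20 (SE 0.08, limma adjusted p = 0.543) and the hyaluronan synthase gene Has1 one of -0.19 (SE 0.07, limma adjusted p = 0.534), with all 3 knockout signals of Has1 below background. The higher count was 0 when any array but wildtype replicate 3 was left out, and the lower count 0 when any array but knockout replicate 2 was.

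The other guidance families had smaller medians than the semaphorin family. The 17 netrins, slits and their receptors had a median difference of 0.03. Here 2 genes, both higher, had an unadjusted p under 0.05, Unc5d (0.38, SE 0.11, limma adjusted p = 0.471) and Slit2 (0.36, SE 0.13, limma adjusted p = 0.509), and this count was 1 without knockout replicate 1 or knockout replicate 3. The 21 ephrins and Eph receptors had a median of 0.01, and 3 had such a p, 2 of them higher and 1 lower. The count of 1 lower gene was 0 without knockout replicate 2 and 2 without knockout replicate 3. Efnb2 had a difference of 0.36 (SE 0.09, limma adjusted p = 0.451), Efna5 one of 0.61 (SE 0.17, limma adjusted p = 0.481) and Epha10 one of -0.21 (SE 0.07, limma adjusted p = 0.511). Whether the families differ was not tested.

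**Figure D4:**
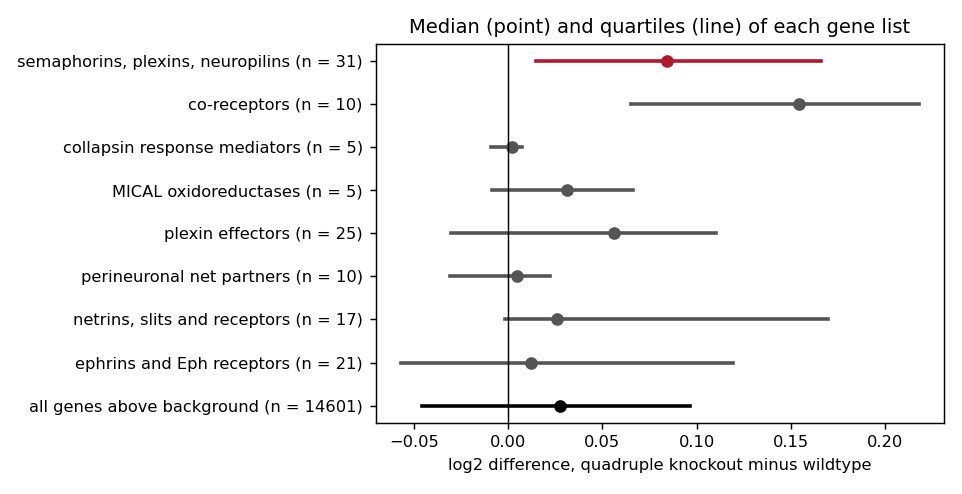
Median (point) and quartiles (line) of the log2 differences, quadruple knockout minus wildtype (horizontal axis), for the 31 genes, 7 lists of partners and other guidance families, and all genes above background. The 31 genes had a median of 0.08 and the co-receptors one of 0.15, and the other 6 lists lay between 0.00 and 0.06.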

How the data were processed

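Male hippocampi at postnatal day 21 were measured on 6 Affymetrix arrays, 3 per genotype, and each array was mapped to its genotype from the sample titles. The deposited log2 values were made by the authors with RMA (Affymetrix Expression Console), and the submitters' processing notes name the Transcriptome Analysis Console too. Program versions and the genome build were not found in the sources read. Precision is limited by the number of arrays. Genes were taken from the platform annotation, where 23521 of 34472 probe sets have 1 symbol, and all 31 genes matched the RefSeq table by gene identifier.

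All probe sets were then fitted with limma (version 3.58.1, R 4.3.3), using lmFit and a two-sided eBayes test without a block. The code was tested on simulated data. The labels call the replicates biological, and the study describes the samples as dependent samples of siblings without saying what they share. P-values therefore measure the spread between these samples and may be too small. The members, lists and tests were chosen with earlier results of these data known. Values in every array are given for members with an unadjusted limma p under 0.05, members whose genotypes do not overlap, Sema4c, the member of each class with the highest mean, and members whose probe sets differ in sign, and further members were named after their values were seen. In each partner list up to 4 genes with the smallest p under 0.05 are named, or the 2 with the smallest p, except 1 plexin effector that is not reported here. Symbols of 5 partner genes and 1 marker gene did not match a probe set with 1 symbol. The alternatives tried were array weights, median centring, another quantile normalization, a block for the replicate number, the ordinary test on each probe set, robust variances with an intensity trend, probe sets above background alone, averaging the probe sets of each gene, each array left out in turn, and an unadjusted p under 0.01. Promoters came from the RefSeq table of GRCm38.p6. Figures were drawn with matplotlib 3.10.9.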

Additional observations from a re-analysis of the deposited data

How the results depend on the processing

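The number of members at an unadjusted limma p under 0.05 was 4, between 1 and 5 when 1 array was left out, and 0 after another quantile normalization or with a limit of 0.01. Whether the replicate numbers pair the arrays is not stated. Same-numbered arrays of the 2 genotypes had correlations of 0.00, -0.12 and -0.03 in their deviations from the group means. Between arrays of different numbers the correlations ran from -0.088 to 0.11. Such values can miss a small shared effect, so they do not settle the pairing. With the replicate block the count of members was also 0, with p from 0.0506 for Sema4c to 0.0768 for Sema4b. By the ordinary test it was 3 (Sema3g, Sema4c and Plxnc1). The median difference of the members was 0.08, between 0.05 and 0.11 with 1 array left out, and 0.14 after median centring, which raises every difference by 0.05. Members without overlap numbered 4, between 5 and 12 with 1 array left out, where fewer arrays overlap less, and 2 after another quantile normalization. Of all probe sets 48 passed the adjusted p, between 35 and 41 with 1 array left out, 24 by the ordinary test and 10 when the probe sets of each gene were averaged, where fewer features were tested. No member passed it under any of the 14 alternatives to the fit. Sema4b, Sema4c, Sema5b and Plxnc1 kept a positive difference under all of them. Small differences changed sign. After another quantile normalization that of Sema4d was -0.0014, of Sema6d -0.0077, of Plxnb2 -0.015 and of Nrp1 -0.012, and after median centring that of Sema5a was 0.022. With 1 array left out the difference ran from -0.016 to 0.11 for Sema4d, from -0.070 to 0.0090 for Sema5a, from -0.032 to 0.095 for Sema6d, from -0.063 to 0.15 for Plxna4, from -0.041 to 0.14 for Plxnb2 and from -0.031 to 0.050 for Nrp1. The cause of these changes was not tested.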
